A study of Rattus norvegicus with 3 samples.

Results

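Chondroitin sulfate proteoglycans and the enzymes that build their sugar chains were followed through the cells of the injured rat spinal cord. The set of 10 genes was picked by symbol, namely Cspg4, Cspg5, Vcan, Bcan, Ncan, Acan, Ptprz1, Xylt1, Chst11 and Chsy1, and each symbol matched exactly 1 of the 25199 features of the deposited count tables. No measured value entered that match. The cells came from animals injected at the injury site with G-HD, MPG-HD or PBS, and PBS serves as the control here, as the study concerns a gel placed in the cord after a severe injury. All groups were wild type rats aged 6 to 8 weeks, and a length of 5 mm of cord around the injury was digested with collagenase and trypsin and cleared of red cells. Each condition used 5 animals and gave 1 library with a 10x Genomics 3′ kit. Whether the animals of a condition were mixed, the time after injury and what the 2 gels contain are not stated in the labels, so treatment, library and animals cannot be told apart.

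A chondroitin sulfate proteoglycan is a core protein carrying long, sulfated sugar chains. The lecticans (versican, brevican, neurocan and aggrecan) bind hyaluronan in the matrix, and after a cord injury these molecules accumulate around the lesion and are known to restrain the regrowth of axons. Chain building starts with a xylosyltransferase on the core protein, goes on with chondroitin synthases and ends with sulfotransferases, whereas lysosomal enzymes take the chains apart.

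The libraries held 26289759 UMIs (unique molecular identifiers, 1 for each captured RNA molecule) for G-HD, 23988263 for MPG-HD and 16081082 for PBS, and 2341, 2087 and 1373 cells passed the filters in the same order. Clustering without the 10 genes gave 13 cell classes, named "like" from marker genes, of which 9 had at least 20 cells in every library. No astrocyte or neuron class was found, although the astrocyte markers summed to 2352 to 2913 UMIs and the neuron markers to 536 to 1080 UMIs per library, so the proteoglycan output of those cells is not described here. Between 5 and 8 cell barcodes were shared by each pair of libraries. Levels below are in CPM (counts per 1e6 UMIs of a class in a library), from sums over its cells. Brackets hold 95% intervals that cover counting error only, not differences between animals. With 1 library per condition there was no test of any difference, and in sums over a class, fewer cells of a kind and less RNA per cell cannot be told apart.

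Of the 10 genes, 7 had at least 20 UMIs in the kept cells. Versican (Vcan) had 2449 UMIs in 781 cells, Ptprz1 1951 UMIs in 512 cells, Chsy1 1204 UMIs in 721 cells and Cspg4 566 UMIs in 397 cells. Brevican (Bcan) followed with 86 UMIs, Chst11 with 67 and neurocan (Ncan) with 21. Cspg5, the membrane proteoglycan neuroglycan C, had 12 UMIs, Xylt1 had 9 and aggrecan (Acan) had 8, of which 4 lay in 1 mural-like cell of the G-HD library. These last 3 genes were too sparse for any comparison.

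By mean CPM most of the measured core protein genes stood highest in oligodendrocyte precursor-like cells, and Chsy1 in fibroblast-like cells. Among the 7 genes with at least 20 UMIs and the 9 classes with enough cells, 5 genes (Ptprz1, Vcan, Cspg4, Bcan and Ncan) had their highest mean CPM over the 3 libraries in the precursor-like class. That class held 67.4% of the Bcan UMIs and 71.4% of the Ncan UMIs. It held 43.2% for Ptprz1, 22.5% for Vcan and 17.5% for Cspg4. Schwann-like cells held 43.5% for Ptprz1, fibroblast-like cells 35.3% for Vcan and microglia-like cells 33.7% for Cspg4. At least 3 of the 10 genes were detected together in 36.6% of precursor-like cells, in 4.8% of fibroblast-like cells, in 3.75% of Schwann-like cells and in none of the 1707 macrophage-like cells. As a measure of free RNA, of the 208 T cell-like cells 1 had Cspg4, 1 had Vcan and 2 had Ptprz1. The 121 B cell-like cells had no UMI of any of the 10 genes, at a median depth of 1771 UMIs, against 3348 UMIs in T cell-like and 8226 UMIs in precursor-like cells.

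**Figure D1:**
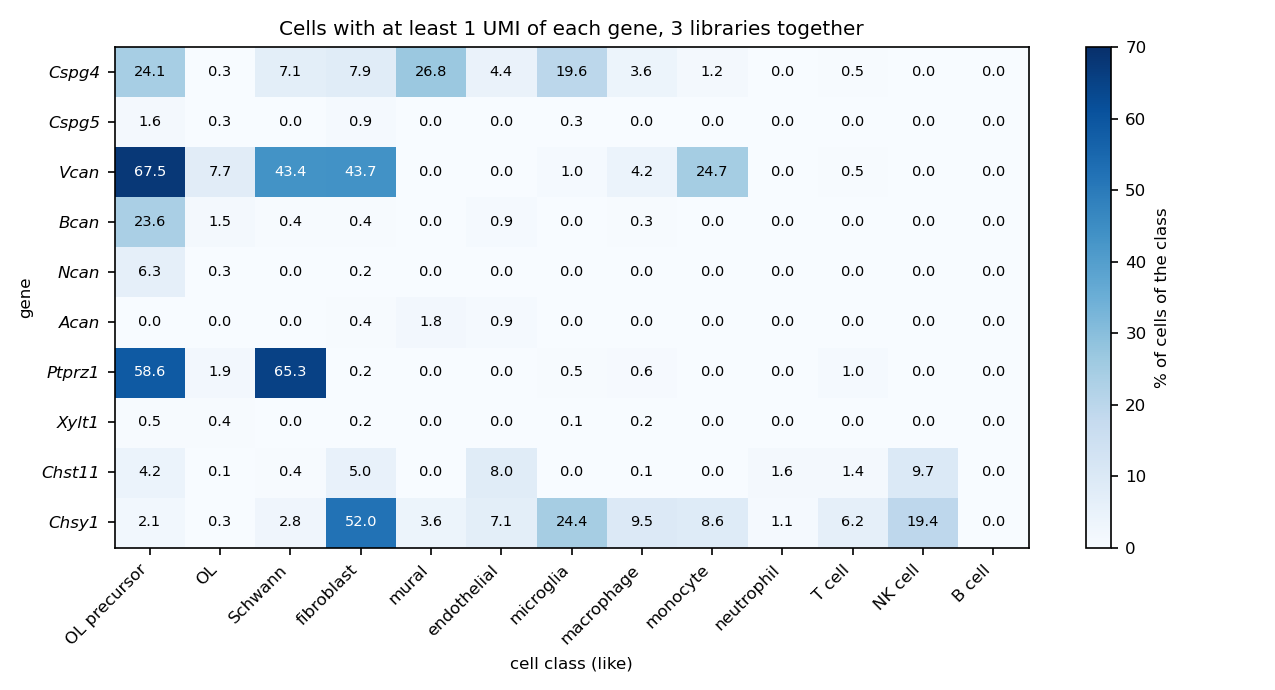
Share of cells with at least 1 UMI of each gene (rows) in each cell class (columns), in percent of the cells of the class over the 3 libraries. Vcan reached 67.5% and Ptprz1 58.6% of oligodendrocyte (OL) precursor-like cells, Chsy1 52.0% of fibroblast-like cells, and Cspg4 19.6% of microglia-like cells.

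The promoters of some of the genes show what they do and do not share. For 8 of the 10 genes RefSeq (build GRCr8) gave a promoter entry, but not for Ptprz1 and Cspg5. The 250 bases before the start are printed for 3 core protein genes highest in precursor-like cells among the 9 classes with enough cells. These are the ones that could be matched and had over 50 UMIs there. The same bases are printed for Chsy1, the synthesis gene highest in fibroblast-like cells. Windows lie at chr8:66160692-66160941 (plus strand) for Cspg4, chr2:22595956-22596205 (minus strand) for the first of the 2 Vcan entries, chr2:175765315-175765564 (minus strand) for Bcan and chr1:129099838-129100087 (plus strand) for Chsy1. Each sequence runs 5′ to 3′ in the direction of the gene, and capitals mark matches on either strand to a GC box (GGGCGG) or a SOX motif (ACAAAG).
Cspg4: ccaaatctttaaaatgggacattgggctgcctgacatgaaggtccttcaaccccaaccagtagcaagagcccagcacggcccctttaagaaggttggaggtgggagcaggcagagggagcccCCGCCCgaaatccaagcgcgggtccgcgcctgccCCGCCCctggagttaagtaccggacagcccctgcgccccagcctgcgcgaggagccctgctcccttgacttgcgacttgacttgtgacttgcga
Vcan: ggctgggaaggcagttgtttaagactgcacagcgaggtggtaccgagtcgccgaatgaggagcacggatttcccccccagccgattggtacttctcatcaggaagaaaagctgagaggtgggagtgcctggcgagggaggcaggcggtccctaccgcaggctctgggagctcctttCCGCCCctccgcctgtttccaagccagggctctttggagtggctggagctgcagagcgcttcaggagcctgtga
Bcan: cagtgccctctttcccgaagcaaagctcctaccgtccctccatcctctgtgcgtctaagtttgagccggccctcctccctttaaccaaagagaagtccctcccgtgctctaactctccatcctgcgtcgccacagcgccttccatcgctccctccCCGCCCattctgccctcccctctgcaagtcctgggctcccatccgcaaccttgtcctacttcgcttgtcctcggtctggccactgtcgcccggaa
Chsy1: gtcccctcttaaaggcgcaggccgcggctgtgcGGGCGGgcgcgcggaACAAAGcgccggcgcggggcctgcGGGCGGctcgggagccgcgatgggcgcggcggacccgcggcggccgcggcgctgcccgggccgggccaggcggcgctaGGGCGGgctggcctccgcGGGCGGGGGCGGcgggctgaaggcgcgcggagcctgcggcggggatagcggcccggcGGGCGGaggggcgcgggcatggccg
A GC box stood in all 4 windows, at 2 places in Cspg4 and 6 in Chsy1, against 30.5% of the 33469 rat promoter windows of that length. Their GC content was 62.0% in Cspg4, 61.6% in Vcan, 61.2% in Bcan and 84.8% in Chsy1, with a median of 51.2% over all windows. The SOX motif was found in Chsy1 only, among these 4, and in 16.3% of all windows. The E-box CAGCTG (11.97% of all windows) and the TATA box TATAAA (12.9%), searched on both strands as well, were absent from these 4 windows. Of the matched genes not printed, Ncan, also highest in precursor-like cells, had a TATA box and Chst11 an E-box. A match describes letters only, and binding was not measured.

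Ptprz1 encodes a receptor-type tyrosine phosphatase whose extracellular part carries chondroitin sulfate; its secreted form is known as phosphacan. In precursor-like cells it had 609.9 CPM in G-HD (546 to 679), 448 CPM in MPG-HD (401 to 499) and 369 CPM in PBS (317 to 427). Schwann-like cells, the myelinating glia of peripheral nerve, had 303 CPM in G-HD, 319 CPM in MPG-HD and 419 CPM in PBS. The lowest precursor-like library was thus below the highest Schwann-like one, so the order of these 2 classes does not exceed the spread of the libraries. In every other class with enough cells Ptprz1 stayed at or below 25.2 CPM, and the macrophage-like, microglia-like and fibroblast-like classes held 10, 4 and 1 of its UMIs. Ptprz1 was found in 331 of 507 Schwann-like cells and in 112 of 191 precursor-like cells.

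Versican, the lectican with the widest distribution here, had 407 CPM in precursor-like cells of G-HD (355 to 464), 287 CPM in those of MPG-HD (249 to 328) and 243 CPM in those of PBS (201 to 291). Schwann-like cells had 261, 244 and 274 CPM in G-HD, MPG-HD and PBS, and fibroblast-like cells 127, 117 and 130 CPM in the same order. The precursor-like and Schwann-like libraries overlapped, and all fibroblast-like libraries lay below both. Monocyte-like cells had 137 CPM in G-HD (32 UMIs), 127 CPM in MPG-HD (13 UMIs) and 112 CPM in PBS (13 UMIs). All of these 58 UMIs came from cluster 19, whose leading genes Fcnb, Elane and Ctsg belong to early granulocyte and monocyte development. The other monocyte-like cluster, led by Siglech and Irf8, held none.

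Brevican and neurocan, lecticans typical of the central nervous system, had most of their counts in precursor-like cells, which held 58 of the 86 Bcan UMIs and 15 of the 21 Ncan UMIs. Bcan stood at 34.8 CPM in G-HD (21.0 to 54.3), 36.5 CPM in MPG-HD (24.1 to 53.1) and 24.7 CPM in PBS (12.8 to 43.2). Ncan had 7.33 CPM in G-HD from 4 UMIs, 8.11 CPM in MPG-HD from 6 UMIs and 10.3 CPM in PBS from 5 UMIs, 4 of them in 1 cell. The intervals of the 3 libraries overlapped for both genes. No microglia-like cell of 733 had a Bcan UMI, which allows a share of up to 0.409% of cells with one.

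Cspg4 encodes the membrane proteoglycan NG2, a classic marker of oligodendrocyte precursors and pericytes, and its counts spread over more classes than those of Ptprz1. Precursor-like cells had 78.8 CPM in G-HD (57.0 to 106), 52.7 CPM in MPG-HD (37.5 to 72.1) and 35.1 CPM in PBS (20.4 to 56.1). Among the 9 classes with enough cells, microglia-like cells came next with 20.7 CPM in G-HD (15.6 to 26.9), 28.5 CPM in MPG-HD (23.2 to 34.5) and 12.4 CPM in PBS (8.55 to 17.4). Every precursor-like library was above every microglia-like one, while microglia-like and Schwann-like libraries (15.7 to 17.7 CPM) overlapped. Mural-like cells, the contractile and pericyte cells of vessels, had 60.7 CPM in G-HD (24 cells), 82.5 CPM in MPG-HD (19 cells) and 153 CPM in PBS (13 cells), from 7, 7 and 13 UMIs. Their mean over the libraries was 98.8 CPM, above the 55.5 CPM of precursor-like cells, though not in G-HD. With under 20 cells in MPG-HD and PBS they were not ranked. In the PBS mural-like cells 7 of the 13 UMIs lay in 1 cell.

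The microglia-like Cspg4 counts were not accompanied by the other precursor genes. Of 733 microglia-like cells 144 had a Cspg4 UMI (19.6%, 16.8 to 22.7) and none of those 144 had a Ptprz1 UMI, whereas all 46 precursor-like cells with Cspg4 had Ptprz1 too. In UMIs, Cspg4 to Ptprz1 stood at 191 to 4 in microglia-like cells, at 99 to 843 in precursor-like cells, at 42 to 848 in Schwann-like cells, at 64 to 1 in fibroblast-like cells and at 27 to 0 in mural-like cells. Among T cell-like cells the share with Cspg4 was 0.481%, at a median depth of 3348 UMIs, against 11825 UMIs in microglia-like cells. After thinning every cell to 2000 UMIs, the share was 3.59% of 724 microglia-like cells, 12.8% of 179 precursor-like cells and 0 of 191 T cell-like cells. The summed precursor markers in microglia-like cells were 2.96 CPM in G-HD, 2.23 CPM in MPG-HD and 5.27 CPM in PBS, against 1672 to 2941 CPM in precursor-like cells.

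Macrophage-like cells had little Cspg4, with 1.77 CPM in G-HD, 3.14 CPM in MPG-HD and 3.85 CPM in PBS, and the counts were unevenly divided among their 3 clusters. Cluster 2, led by C1q genes, Cd8a and Siglec1, had 6.51 CPM in G-HD, 6.49 CPM in MPG-HD and 6.29 CPM in PBS. Cluster 0, led by Mmp12 and Fabp4, had 0.555, 0.985 and 2.66 CPM from 5, 4 and 8 UMIs in the same order. Cluster 6, led by class II genes, had 0 UMIs in all 3 libraries, which allows up to 2.45 CPM in G-HD, 3.01 CPM in MPG-HD and 5.12 CPM in PBS. Cluster 0 held 430 of the 764 macrophage-like cells of G-HD, 197 of the 556 of MPG-HD and 158 of the 387 of PBS, and cluster 2 held 203, 256 and 164 cells in the same order.

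**Figure D2:**
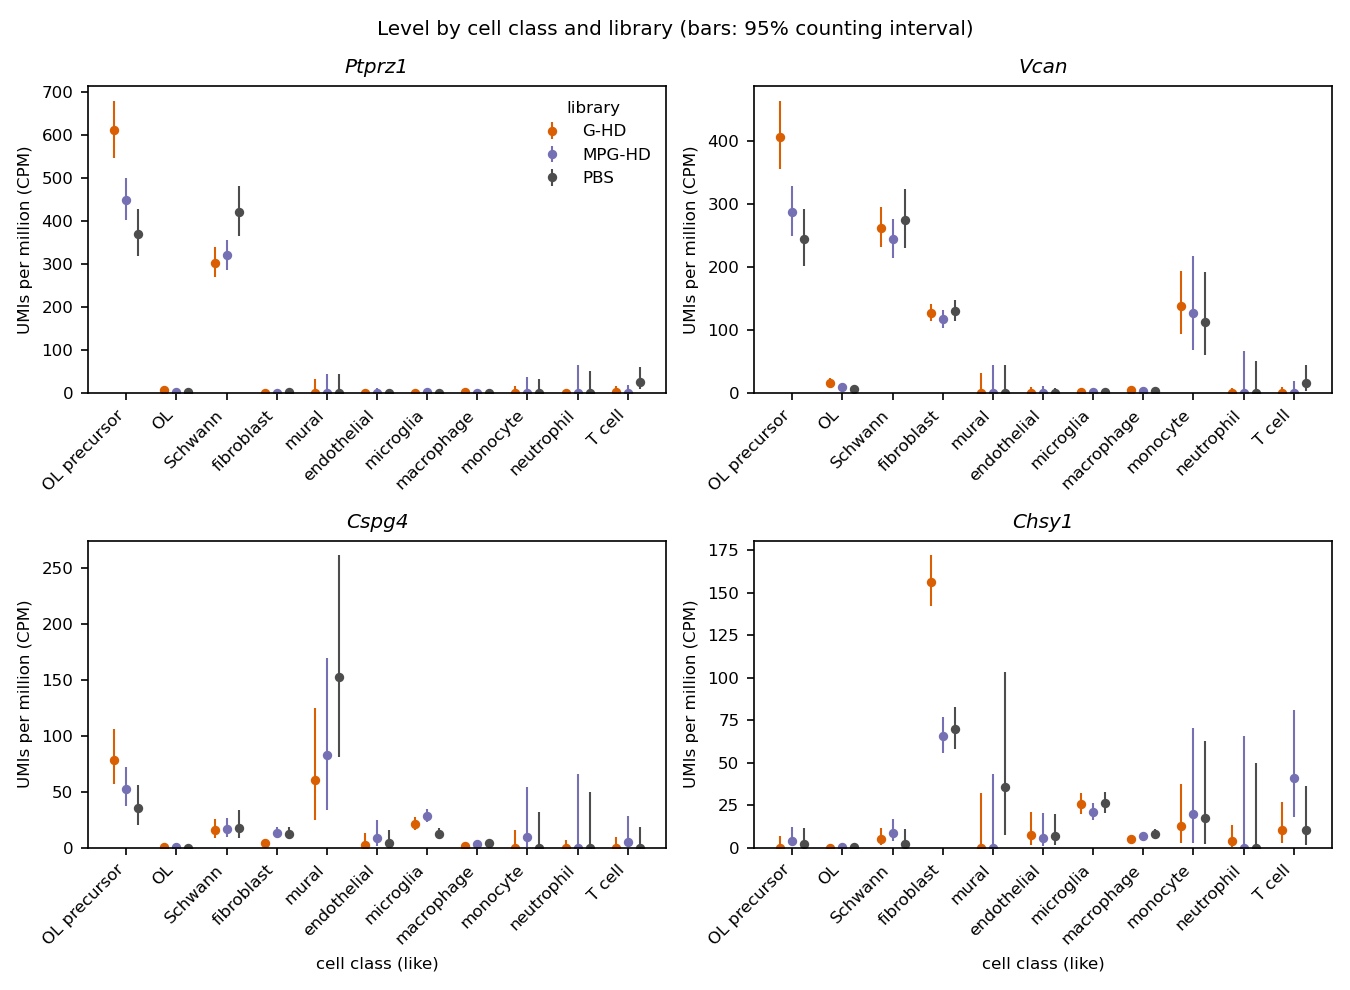
Levels of Ptprz1, Vcan, Cspg4 and Chsy1 in CPM (vertical axes from 0, each gene with its own scale) in 11 cell classes (horizontal axis), with 1 point per library (G-HD orange, MPG-HD violet, PBS grey) and 95% counting intervals as bars. Ptprz1 was high in precursor-like and Schwann-like cells, Cspg4 also in mural-like and microglia-like cells, and Chsy1 reached 156 CPM in fibroblast-like cells of G-HD.

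Precursor-like cells were a mixed class, and the levels of the proteoglycan genes differed within it. Among its leading genes were Bcas1 and Enpp6, known from newly forming oligodendrocytes, and its precursor markers Neu4 and Pcdh15 were at 0 in all 3 libraries. Split again without the 10 genes, the 191 cells fell into 4 groups, a step added after the data were seen. Group 1 (66 cells) had the platelet-derived growth factor receptor gene Pdgfra, a precursor marker, in 69.7% of cells, and Enpp6 in 1 cell, and its leading genes included the astrocyte gene Gfap. Group 2 (65 cells) had Pdgfra in 4 cells and Enpp6 in 61.5%. Group 3 (32 cells), led in part by Mobp and Opalin, and group 4 (28 cells) had Enpp6 in 96.9% and 92.9% of cells.

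Group 1 held 96 of the 99 Cspg4 UMIs, at 204 CPM (165 to 249). Group 2 had 5.43 CPM from 3 UMIs, and groups 3 and 4 had none. Ptprz1 had 1489 CPM (1381 to 1604) in group 1, 231 CPM (193 to 275) in group 2, 5.75 CPM in group 3 and 44.6 CPM in group 4. Versican was high in both groups 1 and 2, with 549 CPM (485 to 621) in group 1 and 481 CPM (425 to 542) in group 2, against 21.1 CPM in group 3 and 71.3 CPM in group 4. Brevican had its highest level outside group 1, with 21.2 CPM (10.2 to 39.0) there, 57.9 CPM (39.6 to 81.7) in group 2, 13.4 CPM in group 3 and 40.1 CPM in group 4. Of the 15 Ncan UMIs, 13 lay in group 1. The groups were not ordered in time by any measurement.

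**Figure D3:**
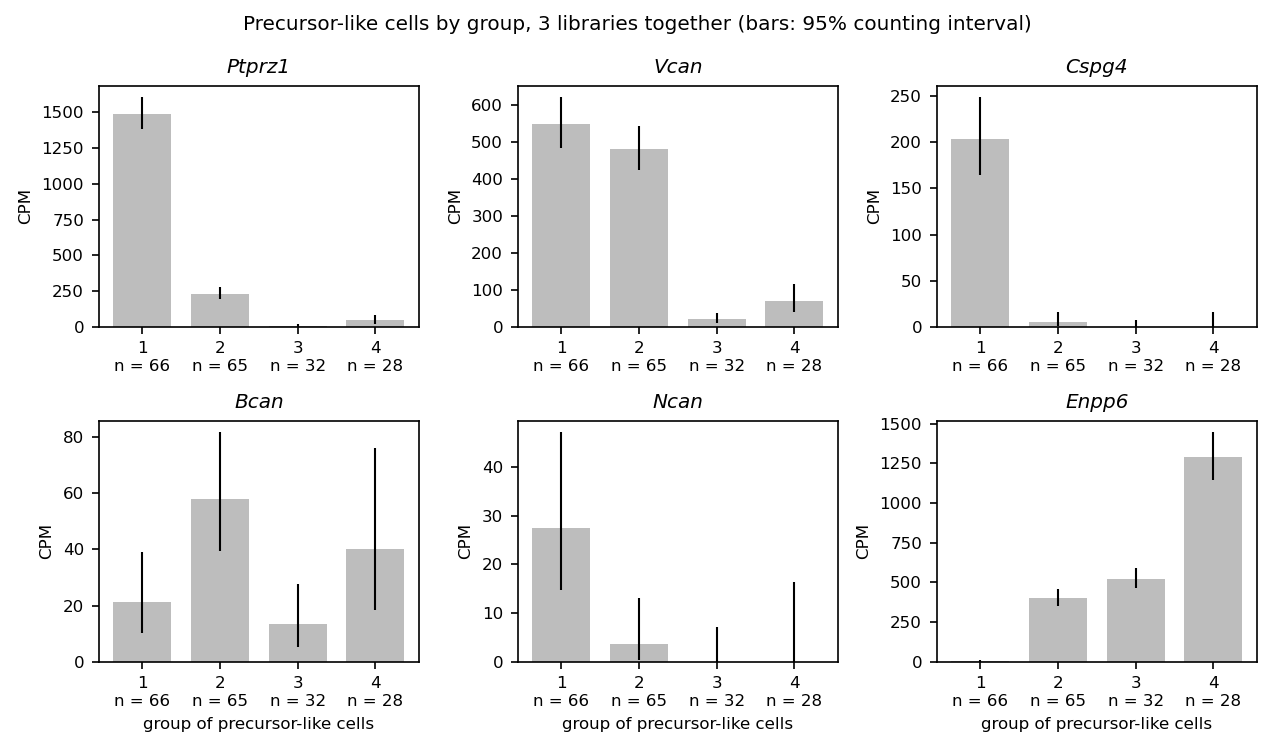
Levels in CPM (vertical axes from 0, each gene with its own scale) in the 4 groups of oligodendrocyte precursor-like cells (horizontal axis, n cells each), the 3 libraries together, with 95% counting intervals. Cspg4 and Ptprz1 were concentrated in group 1, Vcan in groups 1 and 2, while Enpp6 was found in groups 2 to 4.

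G-HD against PBS was compared first, in precursor-like, fibroblast-like, macrophage-like and microglia-like cells. A gene was counted as higher or lower where its CPM differed by at least 1.5-fold and both sums together held 20 UMIs or more. Of 12 gene and class pairs measured in this way, 6 were higher in G-HD, against 11.3% of all feature and class pairs, and 3 were lower, against 9.33%. All other pairs had too few UMIs. Cspg4 alone made up 4 of these 9 pairs. The count of 6 higher pairs depended on the processing. It fell to 3 or fewer with no filter on cells, without the cells of highest doublet score and after thinning. Thinning also left fewer ratios to compare. The count of 3 lower pairs fell with equal weight per cluster, after thinning and with at least 50 UMIs required.

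In precursor-like cells 3 of the 4 measured genes were higher in G-HD, where 18% of features were higher and 11.9% lower. Cspg4 was 2.25-fold higher in G-HD than in PBS (1.25 to 4.20), Vcan 1.67-fold (1.33 to 2.11) and Ptprz1 1.65-fold (1.37 to 1.99), while the ratio for Bcan was 1.41 (0.648 to 3.18). The median log2 ratio of these 4 genes was 0.73, against 0.08 over all features. The Ptprz1 log2 ratio of 0.72 turned to -0.023 with no filter on cells and to -0.014 without the cells of highest doublet score. The make-up of the class differed alongside. Group 1 made up 39.1% of the precursor-like cells in G-HD (25 cells; 27.1 to 52.1), 35.3% in MPG-HD (30 cells; 25.2 to 46.4) and 26.2% in PBS (11 cells; 13.9 to 42.0), with overlapping intervals. The summed markers of mature oligodendrocytes ran the other way, at 30731 CPM in G-HD, 45181 CPM in MPG-HD and 61715 CPM in PBS, with 8, 9 and 9 of the 9 markers detected. The summed astrocyte markers were at 414, 138 and 103 CPM in the same order, with 3 to 5 of 8 markers detected, and their part in the result was not tested.

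Within group 1 the Cspg4 levels lay close together, with 202 CPM in G-HD from 41 UMIs, 201 CPM in MPG-HD from 38 UMIs and 213 CPM in PBS from 17 UMIs. The ratio of G-HD to PBS was 0.951 (0.529 to 1.79) in that group. Ptprz1 in group 1 was at 1342 CPM in G-HD, 1440.4 CPM in MPG-HD and 1977 CPM in PBS, a ratio of G-HD to PBS of 0.679 (0.556 to 0.831), opposite in direction to the whole class. In group 2 it was at 279 CPM in G-HD, 229 CPM in MPG-HD and 157 CPM in PBS, with a G-HD to PBS ratio of 1.78 (1.04 to 3.17). Vcan gave 1.13 (0.787 to 1.64) in group 1 and 0.832 (0.602 to 1.16) in group 2. A PBS cell of group 2 held 42 of the 118 PBS Vcan UMIs of the class, and without the top cell of each library the class ratio for Vcan was 1.23 on the log2 scale, against 0.74 with all cells.

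Chsy1, a chondroitin synthase that elongates the chain, had 156 CPM in fibroblast-like cells of G-HD (142 to 172), 65.4 CPM in those of MPG-HD (55.4 to 76.7) and 69.6 CPM in those of PBS (58.2 to 82.6). G-HD stood apart from the other libraries, at 2.25-fold the PBS level (1.84 to 2.75). In fibroblast-like cells 13.8% of features were higher in G-HD and 10.8% lower. Microglia-like cells, next in order among the 9 classes with enough cells, had 25.5 CPM in G-HD, 20.6 CPM in MPG-HD and 25.98 CPM in PBS, so no fibroblast-like library overlapped them. T cell-like cells, with 10.5 CPM in G-HD, 40.9 CPM in MPG-HD and 10.1 CPM in PBS, overlapped the microglia-like ones. The 31 NK cell-like cells held 6 Chsy1 UMIs. Oligodendrocyte-like cells, at a median depth close to that of both classes (11692 UMIs), had Chsy1 in 2 of 790 cells, against 282 of 542 fibroblast-like and 179 of 733 microglia-like cells.

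The 3 fibroblast-like clusters held very different Chsy1 levels. Cluster 8, led by Igf2 and also by Wnt4, had 201 CPM in G-HD, 141 CPM in MPG-HD and 155 CPM in PBS. Cluster 12, led by Smoc2 and Alpl, had 20.5, 16.2 and 26.4 CPM, and cluster 17, led by Sfrp2, Eln and Comp, had 61.9, 57.3 and 64.0 CPM, both in the order G-HD, MPG-HD, PBS. Cluster 8 held 174 of the 237 fibroblast-like cells of G-HD, 60 of the 168 of MPG-HD and 48 of the 137 of PBS. Inside cluster 8 the G-HD to PBS ratio was 1.30 (1.02 to 1.68), inside cluster 12 it was 0.776 (0.345 to 1.64) and inside cluster 17 it was 0.968 (0.447 to 1.98). With equal weight per cluster the log2 ratio of the class was 0.21, against 1.17 from the sums. The share of cluster 8 and the level of the whole class were both highest in G-HD, and the part of that share in the result was not tested. The summed macrophage markers in fibroblast-like cells were at 1093 CPM in G-HD, 773 CPM in MPG-HD and 408 CPM in PBS, with 6 or 7 of 9 markers detected, and the mural markers at 224, 124 and 120 CPM, with 5 to 9 of 9 detected. Their part was not tested either.

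Versican was spread differently over the same clusters. In cluster 17 it had 449 CPM in G-HD (359.6 to 554), 381 CPM in MPG-HD (325 to 443) and 353 CPM in PBS (299 to 415). Cluster 8 had 124, 70.7 and 123 CPM, and cluster 12 had 22.3, 45.1 and 34.8 CPM, in the order G-HD, MPG-HD, PBS. For the class as a whole Vcan gave a G-HD to PBS ratio of 0.973 (0.824 to 1.15). Single cells held 49 of the 350 Vcan UMIs of the class in G-HD, 40 of 270 in MPG-HD and 55 of 245 in PBS. The counting intervals do not allow for such cells. In cluster 8 it was at 0.573 of the PBS level in MPG-HD (0.391 to 0.838) and at 1.00 in G-HD (0.758 to 1.34).

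**Figure D4:**
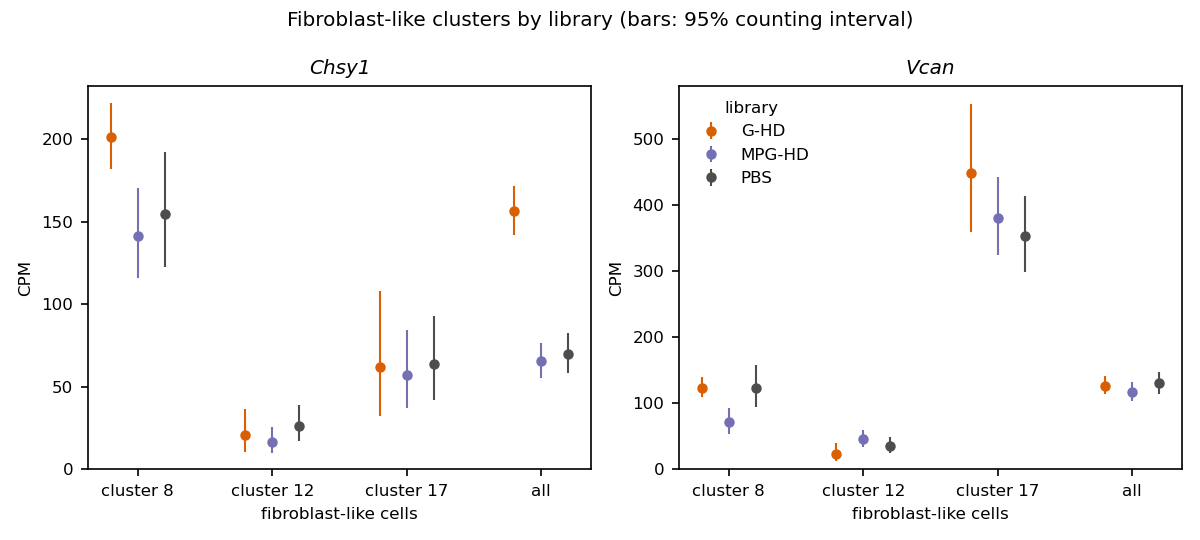
Chsy1 and Vcan in CPM (vertical axes from 0) in the 3 fibroblast-like clusters and in the whole class (horizontal axis), with 1 point per library (G-HD orange, MPG-HD violet, PBS grey) and 95% counting intervals. Chsy1 peaked in cluster 8 and Vcan in cluster 17, and the gap of Chsy1 between G-HD and PBS was larger in the whole class (156 against 69.6 CPM) than inside cluster 8 (201 against 155 CPM).

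Cspg4 in fibroblast-like cells was lower in G-HD, with 4.34 CPM from 12 UMIs, against 12.2 CPM from 23 UMIs in PBS, a ratio of 0.355 (0.161 to 0.744). Its levels also differed between the clusters, with 3.44 CPM in cluster 8 of G-HD, 3.93 CPM in that of MPG-HD and 3.91 CPM in that of PBS, and 9.30, 12.6 and 20.03 CPM in cluster 12. Cluster 17 had 0 UMIs in G-HD, which allows up to 15.5 CPM, 27.5 CPM in MPG-HD from 12 UMIs and 4.74 CPM in PBS from 2 UMIs. The G-HD to PBS ratio was 0.880 (0.168 to 8.69) inside cluster 8, from 7 and 2 UMIs, and 0.464 (0.136 to 1.29) inside cluster 12. In macrophage-like cells, whose clusters made up unequal shares of the libraries, Cspg4 gave 0.459 (0.246 to 0.857) and Chsy1 0.641 (0.436 to 0.949), while Vcan was at 4.31 CPM in G-HD, against 2.85 CPM in PBS, a ratio of 1.51 (0.867 to 2.78), whose log2 value of 0.60 turned to -0.46 with equal weight per cluster. The part of the cluster shares in these ratios was not tested. There 7.51% of features were higher in G-HD and 8.21% lower. Chsy1 had 5.15 CPM in macrophage-like cells of G-HD from 67 UMIs and 8.04 CPM in those of PBS from 48 UMIs. After thinning, Chsy1 was found in 1.56% of macrophage-like cells, in 3.66% of T cell-like cells and in 0 of 642 oligodendrocyte-like cells. As the latter classes differ, neither gives a sure level of free RNA, and nothing is read from the macrophage-like share. In microglia-like cells Cspg4 was 1.67-fold higher in G-HD (1.07 to 2.65) and the ratio of Chsy1 was 0.982 (0.693 to 1.39), where 8.42% of features were higher and 7.22% lower.

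**Figure D5:**
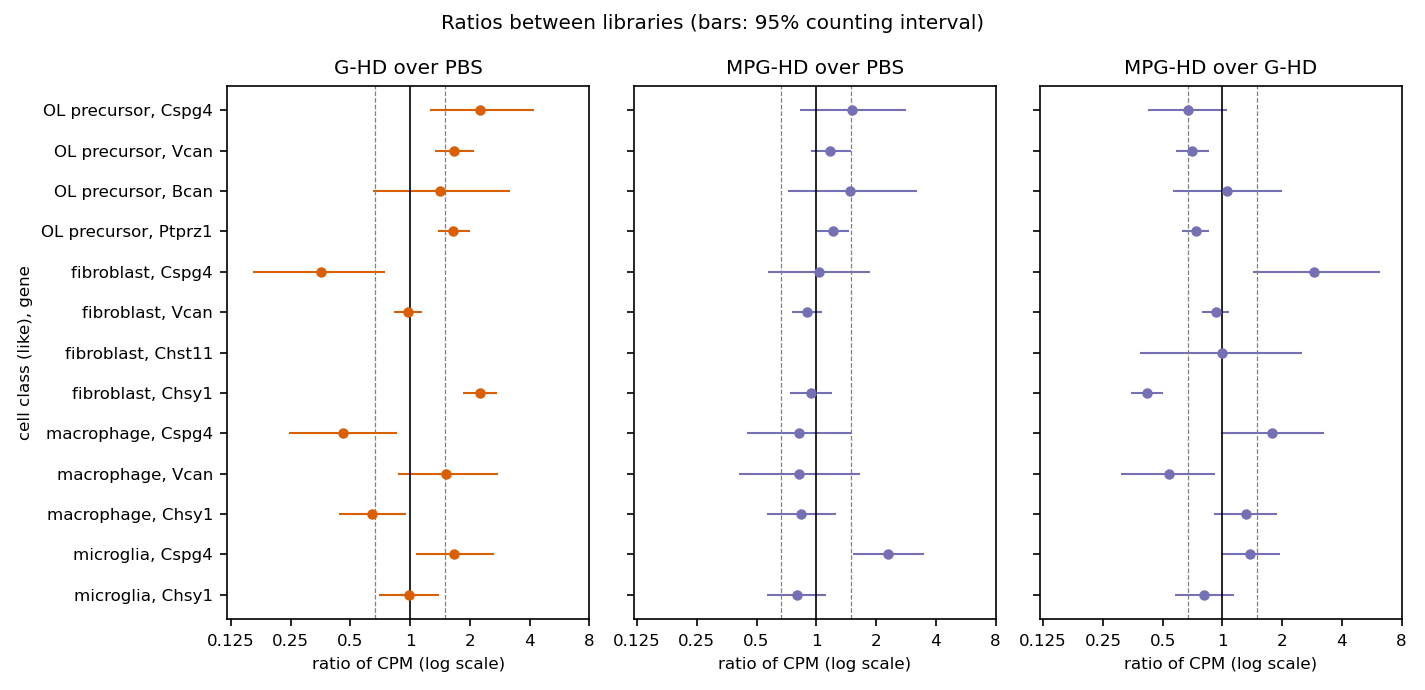
Ratios of CPM between libraries (horizontal axes, log scale) for the genes with 20 UMIs or more over both sums, by cell class and gene (vertical axis), with 95% counting intervals. The solid line is a ratio of 1 and the dashed lines are 1.5-fold in either direction. Among the points to the right, against PBS, are Chsy1 in fibroblast-like and Cspg4 in precursor-like cells of G-HD (2.25 each). Cspg4 in microglia-like cells of MPG-HD lies at 2.29. For MPG-HD over G-HD, Cspg4 in fibroblast-like cells lies further right at 2.89.

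Against PBS, MPG-HD differed at fewer points. Of the 12 measured gene and class pairs, 2 were higher in MPG-HD, against 6.68% of all feature and class pairs, and 0 were lower, against 9.17%. Both were Cspg4. In microglia-like cells it was 2.29-fold higher in MPG-HD than in PBS (1.53 to 3.502), with 102 UMIs in 281 cells against 33 UMIs in 218 cells, where 6.34% of features were higher and 7.04% lower. The shares of microglia-like cells with a Cspg4 UMI were 23.8% in MPG-HD and 14.2% in PBS. No library stood below PBS in that class, since G-HD lay between the other 2. In precursor-like cells the ratio was 1.505 (0.832 to 2.84), with 10.3% of features higher and 12.5% lower, and inside group 1 it was 0.946 (0.521 to 1.79). Ptprz1 in precursor-like cells gave 1.21 (1.01 to 1.46), but 0.729 (0.597 to 0.892) inside group 1. Chsy1 in fibroblast-like cells gave 0.939 (0.738 to 1.196). None of the 3 genes measured in fibroblast-like cells was counted as higher or lower, where 6.26% of features were higher and 11.1% lower. The same held for the 3 measured in macrophage-like cells, where Cspg4 gave 0.815, Vcan 0.817 and Chsy1 0.839, with 5.15% of features higher and 7.17% lower.

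MPG-HD was also set against G-HD. Of 13 measured pairs 2 were higher in MPG-HD, against 6.51% of all feature and class pairs, and 2 were lower, against 11.1%. Chsy1 in fibroblast-like cells was at 0.418 of the G-HD level (0.345 to 0.505), and Cspg4 in the same cells was 2.89-fold higher in MPG-HD (1.43 to 6.22), where 7.02% of features were higher and 15.4% lower. Inside cluster 8 the Cspg4 ratio was 1.14 (0.190 to 4.99) and inside cluster 12 it was 1.36 (0.462 to 4.81), while cluster 17 held 12 UMIs in MPG-HD and 0 in G-HD. In macrophage-like cells Vcan was at 0.540 of the G-HD level (0.307 to 0.913) and Cspg4 at 1.77-fold (0.979 to 3.24), where 5.98% of features were higher and 7.46% lower. None of the 4 genes measured in precursor-like cells passed 1.5-fold, where 7.4% of features were higher and 14.9% lower, though Vcan was at 0.705 (0.581 to 0.855) and Ptprz1 at 0.734 (0.629 to 0.857). In microglia-like cells Cspg4 gave 1.37 (0.983 to 1.94) and Chsy1 0.809 (0.575 to 1.14), where 5.92% were higher and 8.05% lower. The comparisons share libraries with each other, so their ratios are not independent.

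Outside these 4 classes, Ptprz1 in Schwann-like cells was at 0.721 of the PBS level in G-HD (0.604 to 0.863) and at 0.761 in MPG-HD (0.638 to 0.908). It was detected in 59.4% of Schwann-like cells in G-HD, 65.1% in MPG-HD and 78.1% in PBS. Vcan in the same cells gave 0.955 for G-HD over PBS (0.775 to 1.18) and 0.890 for MPG-HD over PBS (0.721 to 1.10). None of the 3 genes measured there (Cspg4, Vcan and Ptprz1) passed 1.5-fold in Schwann-like cells in any comparison, where 11.5% of features were higher and 9.18% lower for G-HD over PBS, 8.87% and 10.5% for MPG-HD over PBS, and 5.32% and 10.4% for MPG-HD over G-HD. In oligodendrocyte-like cells Vcan had 16.1 CPM in G-HD from 32 UMIs, 9.66 CPM in MPG-HD from 49 UMIs and 6.56 CPM in PBS from 17 UMIs, and the G-HD to PBS ratio was 2.45 (1.32 to 4.71). There 8.02% of features were higher in G-HD and 6.76% lower. For MPG-HD over PBS the Vcan ratio was 1.47 (0.834 to 2.73), with 5.36% of features higher and 8.2% lower, and for MPG-HD over G-HD it was 0.601 (0.377 to 0.969), with 4.14% higher and 8.57% lower. Ptprz1 in the same cells had 6.03 CPM in G-HD, 2.37 CPM in MPG-HD and 1.54 CPM in PBS, from 12, 12 and 4 UMIs, and MPG-HD was at 0.392 of the G-HD level (0.161 to 0.954). Against PBS it had too few UMIs to be counted.

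Chst11, a chondroitin sulfotransferase, had few UMIs in any class. Among the 9 classes with enough cells its highest mean CPM was in neutrophil-like cells, where it rested on 1 UMI in each library. The 31 NK cell-like cells held 3 UMIs. Endothelial-like cells had 2.39 CPM in G-HD, 5.60 CPM in MPG-HD and 19.97 CPM in PBS, from 1, 2 and 9 UMIs. Fibroblast-like cells had 4.34, 4.33 and 2.66 CPM from 12, 10 and 5 UMIs in the same order.

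Over 31 sums of a class in a library, with 9023 genes compared, the genes whose levels followed each member most closely were Sox6 and Gpr37l1 for Ptprz1 (Pearson r of 0.98 each), Gap43 and Spon1 for Vcan (0.87 and 0.86), Asb2 and Clmp for Chsy1 (0.87 and 0.85) and Tril and Snx19 for Cspg4 (0.82 and 0.79). Sox6 and Gap43 were among the markers used to name classes. The sums share libraries and depth, so these values describe the table only.

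Other genes of the pathway were taken from 7 lists with 63 genes. Of the genes that prepare the chain, Chpf, a partner of the synthases, was highest in fibroblast-like cells, with 78.2 CPM in G-HD, 108 CPM in MPG-HD and 131 CPM in PBS. Dse, the epimerase that makes dermatan sulfate, was highest there too, at 40.5, 38.5 and 47.3 CPM in the same order. B3gat3, which adds the last sugar of the linker, was highest in precursor-like cells (234, 283 and 237 CPM), as was Papss1, which makes the sulfate donor (289, 296 and 303 CPM). The small leucine-rich proteoglycan decorin (Dcn) was highest in fibroblast-like cells, with 4530 CPM in G-HD, 3470 CPM in MPG-HD and 3428 CPM in PBS. Tnr, a tenascin that binds lecticans and 1 of the markers used to name the class, peaked in precursor-like cells (289, 237 and 198 CPM), and Hapln2, a link protein, in oligodendrocyte-like cells (900, 762 and 949.9 CPM). The receptor genes Ptprf and Rtn4r peaked in fibroblast-like cells, at 46.3, 45.9 and 59.5 CPM and at 11.6, 16.5 and 26.04 CPM. Of the lysosomal genes, Hexa was highest in macrophage-like cells, at 458, 445 and 456 CPM. Adamts4, a lectican-cleaving protease gene, was highest in oligodendrocyte-like cells, at 248, 202 and 262 CPM.

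In fibroblast-like cells 42 of the 63 genes were measured for G-HD over PBS, of which 3 were at least 1.5-fold higher (13.8% of all features were) and 9 lower (10.8% were), with a median log2 ratio of -0.22, against 0.04 over all features. The lectican-cleaving protease gene Adamts15 was 2.21-fold higher in G-HD (1.66 to 2.98), and the chain-degrading sulfatase gene Arsb 2.18-fold (1.81 to 2.62). Epiphycan (Epyc) was at 0.113 of the PBS level (0.0624 to 0.194), the hyaluronan receptor gene Cd44 at 0.357 (0.253 to 0.499) and the hyaluronan synthase gene Has1 at 0.386 (0.268 to 0.550). For MPG-HD over PBS, 2 of 40 were higher (6.26% of all features) and 8 lower (11.1%), with Epyc at 0.212 (0.131 to 0.332), Has1 at 0.235 (0.146 to 0.368) and tenascin C (Tnc) 2.36-fold higher (1.78 to 3.16). For MPG-HD over G-HD, 5 of 42 were higher (7.02% of all features) and 8 lower (15.4%), with Adamts15 at 0.403 (0.303 to 0.530) and Arsb at 0.523 (0.443 to 0.615). Whether these went with the share of cluster 8 was not tested.

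In precursor-like cells 5 of 19 measured list genes passed 1.5-fold upward for G-HD over PBS and 2 downward, against 18% and 11.9% of all features. The core protein gene biglycan (Bgn) was 2.73-fold higher in G-HD (1.77 to 4.30) and 3.37-fold higher in MPG-HD (2.25 to 5.21). The summed fibroblast markers in those cells were at 152 CPM in G-HD, 235 CPM in MPG-HD and 148 CPM in PBS, and their part in the Bgn result was not tested. Among 26 list genes measured in macrophage-like cells, 5 passed upward for G-HD over PBS and 1 downward, against 7.51% and 8.21% of all features. The lysosomal chain-degrading gene Gusb had 163 CPM in G-HD, against 97.1 CPM in PBS (ratio 1.68, 1.53 to 1.85), and Galns was 1.76-fold higher in MPG-HD than in G-HD (1.55 to 2.00). In microglia-like cells 1 of 22 passed upward for G-HD over PBS and 1 downward, against 8.42% and 7.22% of all features.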

How the data were processed

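Single-cell RNA of cells from rat spinal cord was measured in 3 libraries. The values are raw UMI counts per gene and cell barcode, deposited by the authors as whole numbers without scaling. Cell Ranger 3.0.2 and mouse builds (GRCm38, mm10) are named in the submitters' processing notes. The header of the matrices has 3.1.0, and features carry rat identifiers; the rat build is not given in the sources used here. Counts per gene do not separate isoforms.

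Cells with under 200 genes or over 20% mitochondrial UMIs were removed. Scrublet (Scanpy 1.11.5, expected rate 6%) called 14 of 5815 cells (0.241%), under the rate at which the caller is taken to work; called cells were removed and undetected doublets may remain. The 2000 most variable genes in 20 expression bins, with the 10 members left out, gave 30 components (NumPy 2.4.6). A graph of 20 neighbours (scikit-learn 1.9.0) was split by Leiden at resolution 0.8 (leidenalg 0.10.2, python-igraph 0.11.9). Classes were named from 20 marker sets. A cluster needed at least 3 markers in at least 20% of its cells. Clusters stayed unnamed (531 cells, with 211 of the Ptprz1 UMIs) when fewer markers were detected or markers of another class led. Complement genes and Cd8a, Mmp12, and class II genes led the 3 macrophage-like clusters, and Ccl3 and Ccl4 were among the leading genes of the microglia-like one.

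Ratios of CPM have exact conditional 95% intervals, shares exact binomial ones and levels exact Poisson ones (SciPy 1.17.1); a count of 0 allows 3 UMIs. The ratio intervals were tested on simulated Poisson counts, the model that they assume. That test cannot show how they hold where UMIs gather in single cells. Genes could be named if they were members, among the 4 with most UMIs in a list, list genes with 50 UMIs whose nearer bound lay past 1.5-fold, or the 2 most alike genes of a member with 200 UMIs; Pdgfra, Enpp6 and leading genes of clusters were named after their values were seen. The likeness used log2(CPM + 10). Members, lists and tests were chosen with earlier results of these data known. Promoters are from RefSeq. The alternatives tried varied the cell filter, doublets, clustering, weighting, depth and scaling.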

Additional observations from a re-analysis of the deposited data

Results flagged for a closer look

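For Cspg4 the G-HD to PBS ratios went in opposite directions in different classes: 2.25 in oligodendrocyte precursor-like and 1.67 in microglia-like cells, but 0.355 in fibroblast-like and 0.459 in macrophage-like cells. The difference between the classes was not tested, since each condition had 1 library. The macrophage-like value rests on 23 UMIs in each library. The clusters of the macrophage-like and fibroblast-like classes made up unequal shares of the libraries. Macrophage-like cluster 0 held 430 of 764 cells in G-HD and 158 of 387 in PBS, and inside cluster 2 the level was 6.51 CPM in G-HD and 6.29 CPM in PBS. In macrophage-like cluster 0 the level was lower in G-HD than in PBS, from few UMIs. The fibroblast-like ratio was 0.880 (0.168 to 8.69) inside cluster 8, from 7 and 2 UMIs. It was 0.464 (0.136 to 1.29) inside cluster 12, from 5 and 19 UMIs, and cluster 17 held 0 UMIs in G-HD and 2 in PBS. The precursor-like ratio was 0.951 (0.529 to 1.79) inside group 1. The part of the cluster and group shares in these ratios was not tested.

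For Chsy1 the G-HD to PBS ratio was 2.25 in fibroblast-like cells and 0.641 in macrophage-like cells. This difference was not tested either.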

How the results depend on the processing

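No paired analysis was possible because each condition has 1 library. Of 468 ratio values for 37 combinations of gene, class and comparison under 13 alternatives, 437 stayed inside the counting interval of the reported value. The 37 values of the alternative with at least 50 UMIs could not move, since it alters only which pairs are counted. Thinning gave only 24 values. On the log2 scale, Ptprz1 in precursor-like cells (G-HD over PBS 0.72) came to -0.023 with no filter on cells and to -0.014 without the cells of highest doublet score, and Vcan in macrophage-like cells (0.60) to -0.46 with equal weight per cluster; the cause was not tested. Splits of the precursor-like and fibroblast-like classes, added after seeing the data, gave more values opposite in sign to a class ratio past 1.5-fold. The cause was not tested. For G-HD over PBS these were, in precursor group 1, Cspg4 at -0.072 and Ptprz1 at -0.56, in group 2, Vcan at -0.26, and for Chsy1 -0.36 in fibroblast-like cluster 12 and -0.048 in cluster 17. For MPG-HD over PBS it was Cspg4 in group 1 (-0.080). All these intervals included a ratio of 1 except that of Ptprz1 in group 1. For G-HD over PBS the sign stayed for Vcan in group 1 (0.17), Ptprz1 in group 2 (0.83) and Chsy1 in cluster 8 (0.38). Precursor-like ratios short of 1.5-fold also changed sign against PBS: for MPG-HD, Ptprz1 (-0.46) and Vcan (-0.033) in group 1 and Vcan (-0.26) and Bcan (-0.49) in group 2, and for G-HD, Bcan in group 2 (-0.46). Of these, only the interval of Ptprz1 in group 1 left out a ratio of 1.

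The counts of pairs past 1.5-fold changed as follows. G-HD over PBS, higher (6), became 2 with no filter, 3 without the highest doublet scores and 2 after thinning to 2000 UMIs; lower (3) became 1 with equal weight per cluster, after thinning and from 50 UMIs. MPG-HD over PBS, higher (2), became 1 with no filter, without the highest doublet scores and with members among the clustering genes, 4 without the top cell and 0 after thinning. MPG-HD over PBS, lower (0), became 1 with no filter, 500 genes and 10% mitochondrial UMIs, without the highest doublet scores, members in clustering, resolution 0.4, equal weight per cell, equal weight per cluster, and thinning. MPG-HD over G-HD, higher (2), became 1 with 500 genes, members in clustering, resolution 0.4 and from 50 UMIs, and 0 after thinning; lower (2) became 0 with equal weight per cluster. The number of members highest in precursor-like cells (5) became 3 after thinning. Depth limits the sparse genes most. Chsy1 in fibroblast-like cells, G-HD over PBS (1.17), was 0.21 with equal weight per cluster.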
